A study of Homo sapiens with 8 samples.

Results

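Enzymes of the mevalonate arm, the stretch of isoprenoid synthesis from acetyl-CoA to farnesyl and geranylgeranyl pyrophosphate, were followed in CYP2C19-overexpressing HepG2 cells treated with 3 plastic-related compounds. The 8 genes, ACAT2, HMGCS1, MVK, PMVK, MVD, IDI1, FDPS and GGPS1, were chosen by the reaction their products catalyse and were found by symbol among 60230 rows of a gene count table. All 8 passed the filter on low counts and are among the 13400 genes tested.

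HepG2 cells grow from a human liver cancer, and the cells of all 4 groups overexpressed cytochrome P450 2C19 and were kept in blasticidin, so no group without the transgene was compared here. Cells received compound 4 (labelled metylcresol), compound 5 (labelled tetrabut), compound 6 (labelled cyclohexil) or DMSO, the solvent, at 0.2% for 24 h, with 2 libraries in each group, labelled day 1 and day 2 and called replicates 1 and 2 here. Each compound was given at its own IC50, the concentration that lowers the viability readout to the midpoint, so the molar doses were close but not equal, highest for compound 6 and lowest for compound 5. The paper read viability after a longer treatment than the 24 h used for RNA, so the viability of the sequenced cells is not known. The part of dose in a difference between compounds was not tested. Compounds 4 and 6 are bisphenols with the same methylene bridge and methyl groups, with tert-butyl groups in compound 4 where compound 6 carries cyclohexyl groups, and compound 5 has an ethylidene bridge and more tert-butyl groups. Nothing in the sources says that the libraries of a group came from separately grown cultures, so p-values measure the spread between these libraries, which may be technical.

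The total count per library ranged from 9791659 to 17814595. The liver genes ALB, AFP, HNF4A, FGB, APOH and AHSG were detected in each of the 8 libraries, with ALB between 14369 and 20660 CPM (counts scaled to the TMM-adjusted library size, per 1e6) and AFP between 4598 and 8998 CPM. Under compound 4, AFP and APOH fell (log2-fold changes -0.71 and -0.83, edgeR adjusted p = 0.016 and 0.013). Under compound 5 FGB rose by 0.53 (edgeR adjusted p = 0.03), and with the replicate block AFP and AHSG also fell. Under compound 6 none of the 6 passed the edgeR test. There 4 of the 6 had an unadjusted edgeR p under 0.05, as had 2490 of the 13400 genes tested. Of the markers of other cell types, PTPRC and DCN were at 0 in each library, COL3A1 had 1 count in 1 library, PECAM1 and LYVE1 had at most 7 and 3 counts, and CD68, which was between 20.0 and 39.3 CPM, was higher under compound 4 (log2-fold change 0.80, edgeR adjusted p = 0.016). CYP2C19 was at 27.7 and 16.4 CPM under DMSO, 31.4 and 44.3 under compound 4, 52.8 and 37.96 under compound 5 and 23.9 and 21.2 under compound 6, and rose under compound 5 by 1.05 on the log2 scale (edgeR adjusted p = 0.04). The part of these genes in the results below was not tested.

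In the mevalonate pathway, cells build a branched building block, isopentenyl pyrophosphate, from acetyl-CoA and join its units into longer chains. Farnesyl pyrophosphate is the branch point: it is either turned into sterols and cholesterol, or used to farnesylate proteins, or lengthened for dolichol, ubiquinone and protein geranylgeranylation. The liver is a major site of cholesterol synthesis, and many genes of the pathway are under control of SREBP-2, a membrane-bound transcription factor released when sterols are scarce, which binds promoter elements beside the factors NF-Y, at CCAAT boxes, and Sp1, at GC boxes.

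The genes lie on 6 chromosomes (GRCh38, GENCODE 29 annotation). ACAT2 (ENSG00000120437) is at chr6:159760328-159779055 on the plus strand, HMGCS1 (ENSG00000112972) at chr5:43289395-43313512 on the minus strand, and MVK (ENSG00000110921) at chr12:109573255-109598117 on the plus strand. PMVK (ENSG00000163344) is at chr1:154924734-154936991 on the minus strand, MVD (ENSG00000167508) at chr16:88651935-88663161 on the minus strand, and IDI1 (ENSG00000067064) at chr10:1039152-1049170 on the minus strand. FDPS (ENSG00000160752) is at chr1:155308748-155320666 and GGPS1 (ENSG00000152904) at chr1:235327350-235344532, both on the plus strand. All 8 are annotated as protein-coding, and the count of a gene is the sum of the estimates for its transcripts.

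RefSeq promoter windows (GRCh38.p14, 250 bases before to 50 bases after a transcription start) were found for 7 of the 8 genes (not ACAT2), 12 windows in all. The CCAAT box, searched as CCAAT on both strands, was present in 7 of the 12 windows and in 6 of the 7 genes, against 34.6% of 35116 RefSeq promoters of the same length and 39.7% of the 27305 genes they belong to. FDPS, MVD and 1 start of IDI1 had 3 matches each and MVK had 5, where 3.26% of the promoters had at least 3. The GC box, searched as GGGCGG on both strands, was present in 11 of the 12 windows, against 45.0% of the promoters. The core of a sterol response element, searched as CACNCCAC on both strands, was present in 1 window, that of IDI1, against 5.87% of the promoters. The windows of 4 genes are shown to compare genes whose counts fell (below) with PMVK, the gene whose window had no CCAAT match. Each is printed 5′ to 3′ on the strand of the gene, with CCAAT matches (CCAAT or its complement ATTGG) and the sterol element match (GTGGCGTG, the element read on the other strand) in capitals. They are HMGCS1 at chr5:43313363-43313662 (minus strand), MVK at chr12:109573544-109573843 (plus strand), IDI1 at chr10:1048837-1049136 (minus strand) and PMVK at chr1:154936670-154936969 (minus strand).
HMGCS1: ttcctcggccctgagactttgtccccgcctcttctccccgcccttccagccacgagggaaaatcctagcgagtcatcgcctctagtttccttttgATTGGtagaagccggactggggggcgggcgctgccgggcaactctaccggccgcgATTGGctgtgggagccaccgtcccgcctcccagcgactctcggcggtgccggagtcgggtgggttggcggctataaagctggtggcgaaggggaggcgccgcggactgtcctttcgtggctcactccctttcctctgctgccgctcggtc
MVK: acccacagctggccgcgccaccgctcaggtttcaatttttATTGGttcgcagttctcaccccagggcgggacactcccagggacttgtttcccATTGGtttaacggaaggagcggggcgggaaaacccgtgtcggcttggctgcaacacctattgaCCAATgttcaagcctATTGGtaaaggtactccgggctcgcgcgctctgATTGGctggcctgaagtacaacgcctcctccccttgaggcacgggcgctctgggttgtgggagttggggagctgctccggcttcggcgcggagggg
IDI1: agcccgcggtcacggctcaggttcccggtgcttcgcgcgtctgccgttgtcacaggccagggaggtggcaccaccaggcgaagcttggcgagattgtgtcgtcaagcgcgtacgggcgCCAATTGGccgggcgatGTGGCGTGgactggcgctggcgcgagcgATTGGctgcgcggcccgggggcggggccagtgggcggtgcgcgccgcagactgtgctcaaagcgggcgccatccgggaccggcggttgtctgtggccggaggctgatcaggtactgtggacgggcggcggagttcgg
PMVK: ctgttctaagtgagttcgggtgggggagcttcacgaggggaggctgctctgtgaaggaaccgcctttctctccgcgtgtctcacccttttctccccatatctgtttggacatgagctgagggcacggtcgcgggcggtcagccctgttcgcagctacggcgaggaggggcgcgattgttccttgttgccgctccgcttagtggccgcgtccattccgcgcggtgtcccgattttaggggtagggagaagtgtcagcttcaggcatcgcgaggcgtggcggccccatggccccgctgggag
The IDI1 window shown holds 2 CCAAT matches that overlap, on opposite strands. HMGCS1 and IDI1 have other windows, and the one shown has the most CCAAT matches of its gene. The other HMGCS1 window and 1 other IDI1 window had 0 CCAAT matches. With windows shown in this way, whether matches go with a fall in counts was not tested. GGPS1, the other gene that did not fall, had 1 CCAAT match in 1 of its 3 windows. A match is a run of letters and was not tested as a binding site.

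**Figure D1:**
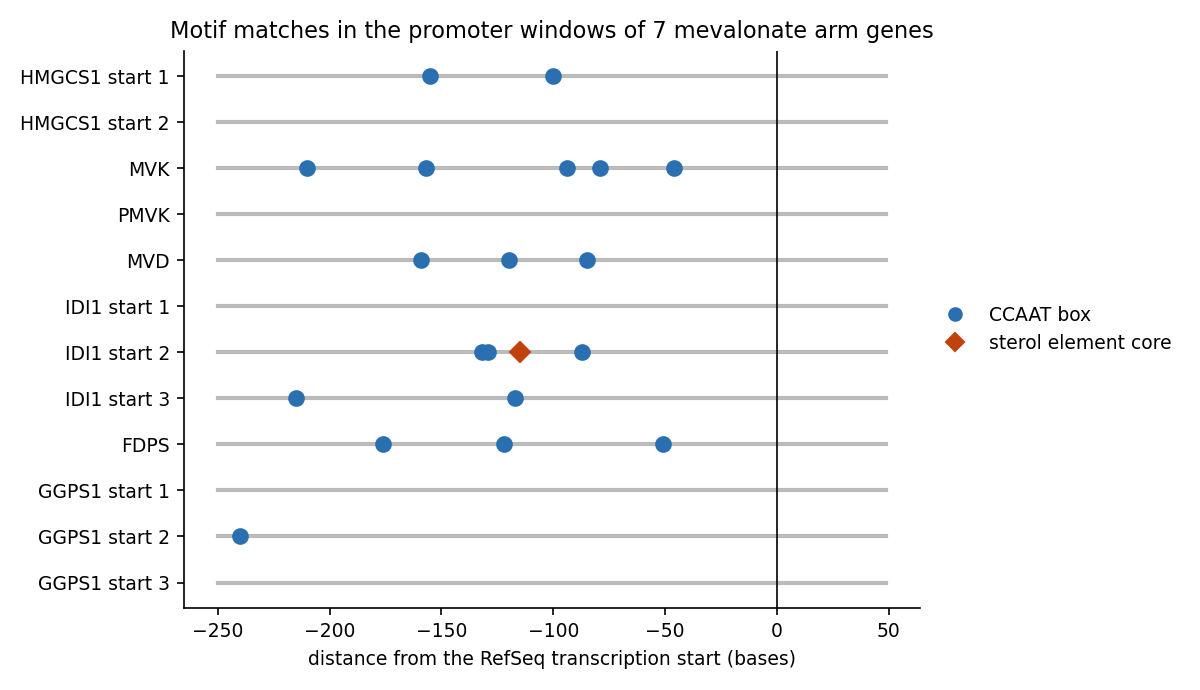
CCAAT box matches (circles) and sterol response element core matches (diamond) in the 12 RefSeq promoter windows of 7 mevalonate arm genes, by distance in bases from the transcription start. PMVK has no match, and MVK has 5 CCAAT matches.

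Under DMSO, levels per kilobase of the principal GENCODE 29 transcript differed widely between the enzymes. FDPS was highest at 147 ± 8.57 CPM per kb (SD, n = 2), above HMGCS1 at 66.9 ± 5.03, ACAT2 at 59.8 ± 1.88 and MVD at 59.4 ± 4.45, of which the last 2 did not differ beyond their spread. IDI1 followed at 27.9 ± 1.23 and MVK at 17.2 ± 2.30. GGPS1 at 6.06 ± 0.795 and PMVK at 5.82 ± 0.648 were lowest, did not differ beyond their spread, and changed places when the merged exon length was used. Under compound 4 the order began with FDPS at 59.4 ± 5.27 CPM per kb and MVD at 18.6 ± 0.599, and MVK, IDI1 and GGPS1 lay close together at 7.50 ± 0.360, 7.41 ± 1.33 and 7.19 ± 0.326. The 8 genes together made up 917 ± 18.1 CPM under DMSO, 299 ± 28.9 under compound 4, 312 ± 71.6 under compound 5 and 479 ± 3.15 under compound 6 (SD, n = 2 each), or 32.6%, 34.0% and 52.2% of the DMSO mean for compounds 4–6. These sums are relative to all RNA in the library, and fewer cells of a kind and less RNA per cell cannot be told apart in bulk RNA.

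**Figure D2:**
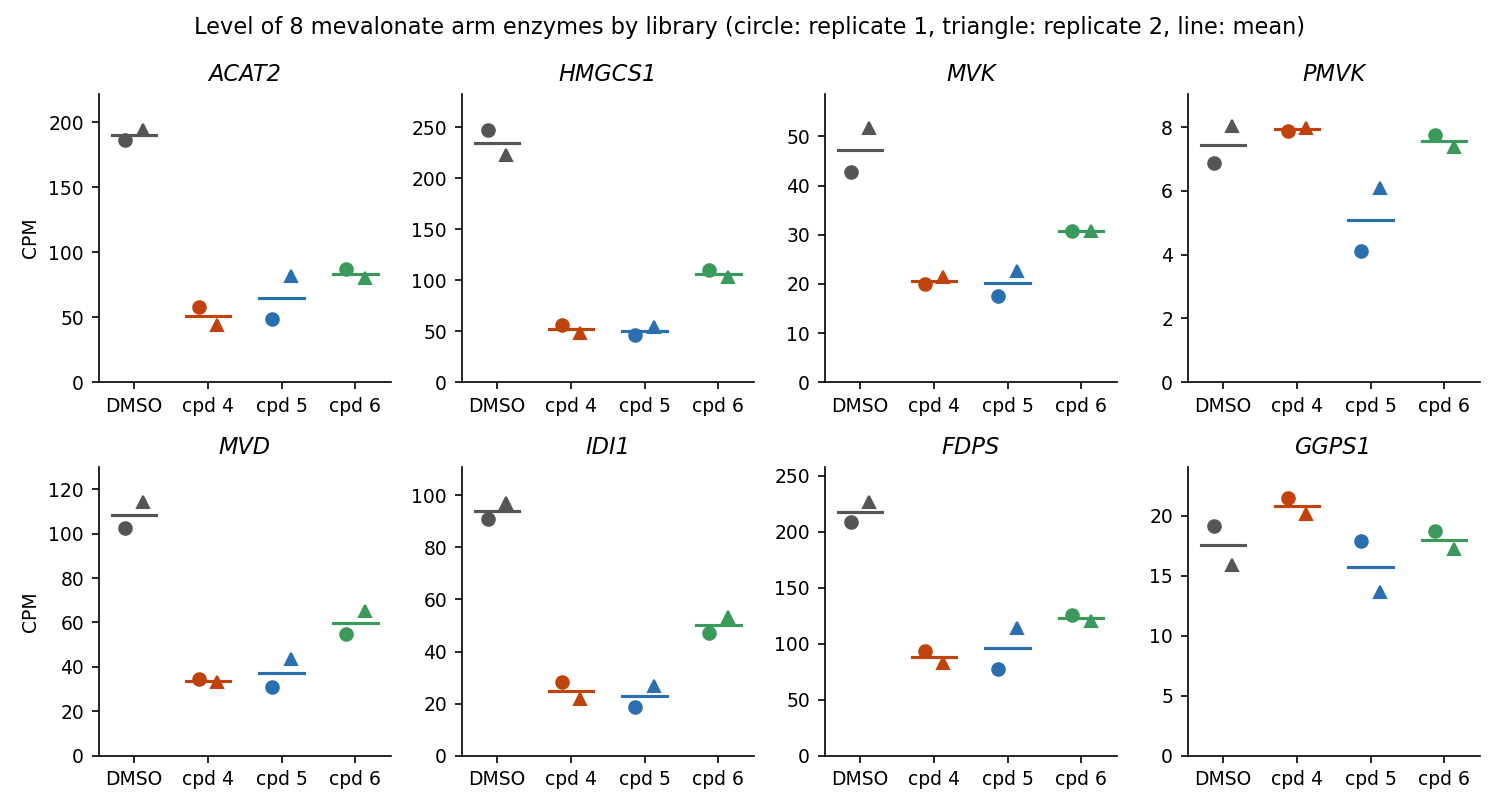
TMM-scaled CPM of each of the 8 enzymes (vertical axes start at 0) in the DMSO, compound 4, compound 5 and compound 6 libraries, with replicate 1 as a circle, replicate 2 as a triangle and the mean as a line. In 6 panels the treated libraries lie below both DMSO libraries, and in those of PMVK and GGPS1 the groups mostly overlap.

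Compound 4 was compared with DMSO to ask how it changed gene expression. Counts of 6 of the 8 enzymes fell, those of the first steps (ACAT2, HMGCS1), of MVK, of MVD and of the steps to farnesyl pyrophosphate (IDI1, FDPS), while PMVK and GGPS1 did not pass the test. Of all genes tested, 3.91% were called lower in this comparison (edgeR quasi-likelihood test, adjusted p under 0.05). The same 6 genes had both compound 4 libraries below both DMSO libraries, as had 28% of all genes tested, and the median log2-fold change over all genes was 0.01.

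HMGCS1 encodes the cytosolic synthase that makes 3-hydroxy-3-methylglutaryl-CoA. It was at 247 and 222 CPM under DMSO, 56.4 and 48.3 under compound 4, 46.0 and 54.2 under compound 5 and 109.6 and 103 under compound 6. The DMSO libraries were highest, those of compound 6 intermediate, and those of compounds 4 and 5 lowest and overlapping each other. Under compound 4 HMGCS1 fell by 2.17 ± 0.13 on the log2 scale (SE, edgeR adjusted p = 8.4e-05), to 22.3% of DMSO.

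ACAT2, the cytosolic acetyl-CoA acetyltransferase that opens the pathway, was at 186 and 194 CPM under DMSO, 57.8 and 43.7 under compound 4, 48.6 and 81.5 under compound 5 and 86.7 and 80.2 under compound 6. The DMSO libraries stood above the treated ones, and replicate 2 of compound 5 reached the level of the compound 6 libraries. Under compound 4 ACAT2 fell by 1.91 ± 0.22 on the log2 scale (edgeR adjusted p = 0.003), to 26.6% of DMSO.

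IDI1 encodes the isomerase that turns isopentenyl into dimethylallyl pyrophosphate. It was at 91.0 and 96.9 CPM under DMSO, 28.1 and 21.8 under compound 4, 18.9 and 26.7 under compound 5 and 47.1 and 53.4 under compound 6. Its groups were ordered as those of HMGCS1, with the DMSO libraries highest and those of compounds 4 and 5 overlapping at the bottom. Under compound 4 IDI1 fell by 1.91 ± 0.18 on the log2 scale (edgeR adjusted p = 0.0014), to 26.5% of DMSO.

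MVD, the decarboxylase that yields isopentenyl pyrophosphate, was at 103 and 114 CPM under DMSO, 34.6 and 33.1 under compound 4, 31.1 and 43.5 under compound 5 and 54.8 and 65.0 under compound 6. The compound 4 libraries lay between those of compound 5, and the compound 6 libraries stood between these and DMSO. Under compound 4 MVD fell by 1.68 ± 0.17 on the log2 scale (edgeR adjusted p = 0.0016), to 31.2% of DMSO.

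FDPS joins the units into farnesyl pyrophosphate and is the target of nitrogen-containing bisphosphonate drugs. It was at 209 and 227 CPM under DMSO, 93.4 and 82.3 under compound 4, 77.5 and 114 under compound 5 and 125 and 119.9 under compound 6. All treated libraries were below both DMSO libraries. Under compound 4 FDPS fell by 1.31 ± 0.17 on the log2 scale (edgeR adjusted p = 0.0041), to 40.3% of DMSO.

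MVK, the kinase that phosphorylates mevalonate, was at 42.7 and 51.7 CPM under DMSO, 19.9 and 21.3 under compound 4, 17.5 and 22.7 under compound 5 and 30.8 and 30.7 under compound 6. The compound 6 libraries again lay between DMSO and the others. Under compound 4 MVK fell by 1.20 ± 0.16 on the log2 scale (edgeR adjusted p = 0.0043), to 43.6% of DMSO. Leaving out replicate 2 of DMSO ended 2 of the 6 calls, those of MVK (-1.05, edgeR adjusted p = 0.063) and FDPS (-1.25, edgeR adjusted p = 0.055).

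PMVK encodes the kinase that adds the next phosphate, between the MVK and MVD steps. It was at 6.87 and 8.04 CPM under DMSO, 7.88 and 7.98 under compound 4, 4.12 and 6.09 under compound 5 and 7.75 and 7.39 under compound 6. The compound 4 and compound 6 libraries lay within the range of DMSO, and those of compound 5 lay below it. The log2-fold change under compound 4 was 0.09 with a 95% interval from -0.41 to 0.58 (edgeR adjusted p = 0.83). PMVK rested on 50 to 107 counts a library, the fewest of the 8 genes.

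GGPS1 makes geranylgeranyl pyrophosphate, which anchors proteins such as the Rab GTPases to membranes. It was at 19.2 and 15.9 CPM under DMSO, 21.5 and 20.2 under compound 4, 17.9 and 13.7 under compound 5 and 18.7 and 17.2 under compound 6. Both compound 4 libraries were above both DMSO libraries, and the other groups overlapped DMSO. The log2-fold change under compound 4 was 0.25 with a 95% interval from -0.12 to 0.62 (edgeR adjusted p = 0.37). Together PMVK and GGPS1 made up 2.88% and 2.58% of the summed CPM of the 8 genes in the DMSO libraries and 9.19% and 10.1% in those of compound 4.

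Compound 5 was compared with DMSO in the same way. The counts of the 6 genes that fell under compound 4 fell here as well, and PMVK and GGPS1 did not pass the test. Of all genes tested, 2.95% were called lower, and both compound 5 libraries were below both DMSO libraries for 7 of the 8 enzymes, against 28.5% of all genes. HMGCS1 fell by 2.22 ± 0.13 on the log2 scale (edgeR adjusted p = 0.00019) and IDI1 by 2.03 ± 0.18 (edgeR adjusted p = 0.0016), to 21.4% and 24.4% of DMSO. ACAT2 fell by 1.54 ± 0.22 (edgeR adjusted p = 0.0062) and MVD by 1.53 ± 0.16 (edgeR adjusted p = 0.003). MVK fell by 1.22 ± 0.15 (edgeR adjusted p = 0.0047) and FDPS by 1.18 ± 0.17 (edgeR adjusted p = 0.0062). PMVK, the gene with the fewest counts, had a log2-fold change of -0.53 with a 95% interval from -1.04 to -0.03 (edgeR adjusted p = 0.16, unadjusted p = 0.04), and GGPS1 one of -0.16 with an interval from -0.53 to 0.22 (edgeR adjusted p = 0.56). Compounds 4 and 5 were compared with the same DMSO libraries, so their changes are not independent. Without replicate 2 of DMSO, 3 genes in place of 6 were called, ACAT2, MVK and FDPS being lost with edgeR adjusted p between 0.058 and 0.072.

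The compound 5 libraries differed from each other in these enzymes more than the libraries of the other groups did. In 7 of the 8 genes replicate 2 was higher, GGPS1 being the exception, with a median difference of 0.49 on the log2 scale, where the median absolute difference over all genes tested in this group was 0.20. The median absolute difference of the 8 genes was 0.15 under DMSO, 0.14 under compound 4 and 0.10 under compound 6. The summed CPM of the 8 genes was thus 28.5% of the DMSO mean in replicate 1 of compound 5 and 39.6% in replicate 2. With either compound 5 library left out, 6 genes were still called.

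Compound 6 was compared with DMSO last, and its values were intermediate. ACAT2 fell by 1.19 ± 0.21 on the log2 scale (edgeR adjusted p = 0.049) and HMGCS1 by 1.14 ± 0.13 (edgeR adjusted p = 0.012), to 43.9% and 45.2% of DMSO, and the other 6 enzymes did not pass the test. Of all genes tested, 0.0821% were called lower, 11 genes, of which ACAT2 and HMGCS1 are 2. Both compound 6 libraries were below both DMSO libraries for 6 of the 8 enzymes, against 26% of all genes. The log2-fold changes of IDI1, MVD, FDPS and MVK were -0.90, -0.85, -0.83 and -0.62, with edgeR adjusted p of 0.054, 0.054, 0.055 and 0.088 and 95% intervals that did not include 0. PMVK was at 0.02 with an interval from -0.48 to 0.52 (edgeR adjusted p = 0.98) and GGPS1 at 0.04 with an interval from -0.34 to 0.42 (edgeR adjusted p = 0.93).

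The count of 2 under compound 6 moved with the way the data were treated. It was 6 with DESeq2, with no filter on low counts and when only the 4 libraries compared were fitted, and 6 again when either compound 5 library was left out. It was 0 when either DMSO library or replicate 2 of compound 6 was left out, and 1 without replicate 1 of compound 6 or with DESeq2 size factors. With the replicate number as a block (day 1 and day 2), ACAT2 was no longer called (edgeR adjusted p = 0.058) and MVD was (edgeR adjusted p = 0.042), which left the count at 2. The log2-fold changes of these 6 genes stayed below 0 in each of these fits.

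**Figure D3:**
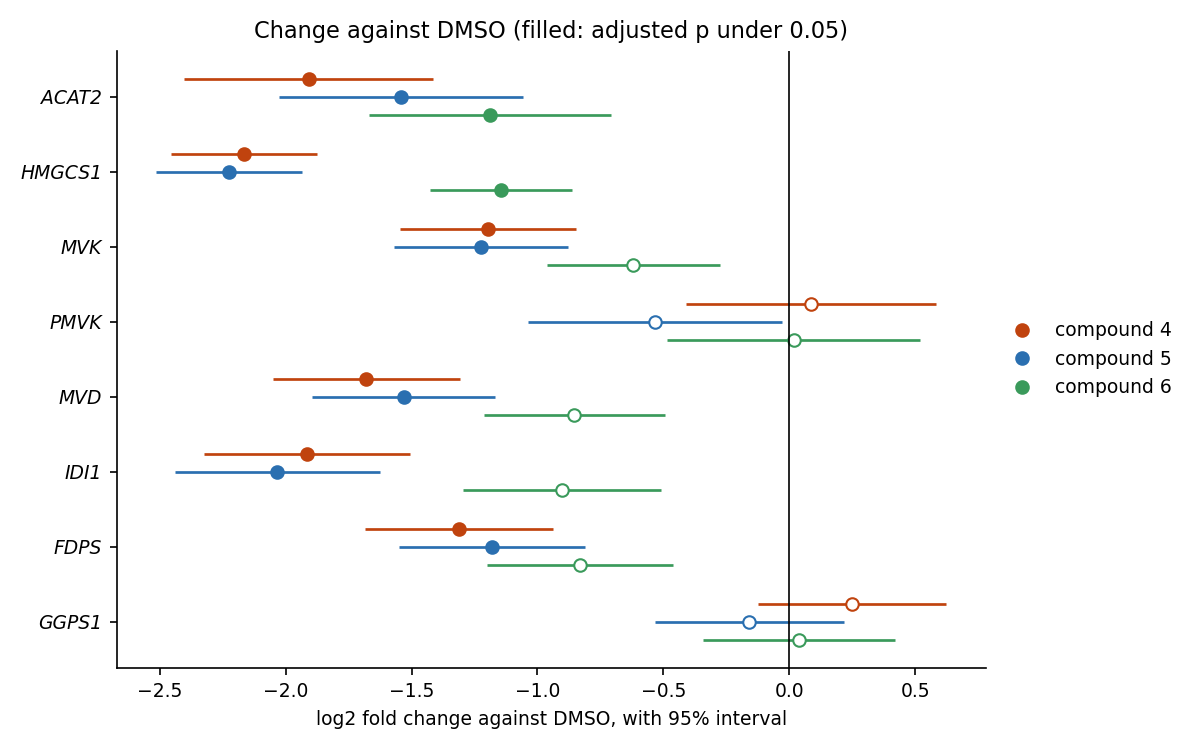
Log2-fold change of each of the 8 enzymes against DMSO under compounds 4–6, from 1 edgeR fit of all 8 libraries, with 95% intervals as bars and filled symbols for an adjusted p under 0.05. HMGCS1 is at -2.17, -2.22 and -1.14, and the intervals of GGPS1 include 0 under each compound.

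Whether the compounds differed from each other was tested in 3 pairs, each adjusted over all 13400 genes tested but not over the pairs. Between compounds 4 and 5, which differ in the bridge and in the number of tert-butyl groups, none of the 8 enzymes passed the edgeR test or the DESeq2 test, where 0.313% of all genes passed the edgeR test. The unadjusted edgeR p was under 0.05 for 2 of the 8, PMVK and GGPS1, and for 2177 of all 13400 genes tested. Their log2 differences were 0.62 (PMVK, 95% interval 0.12 to 1.12) and 0.41 (GGPS1, 0.04 to 0.78) toward compound 4. For HMGCS1 the difference was 0.06 with an interval from -0.23 to 0.35, for MVK 0.03 (-0.33 to 0.38), for IDI1 0.12 (-0.29 to 0.53), for MVD -0.15 (-0.52 to 0.22) and for FDPS -0.13 (-0.50 to 0.24). For ACAT2 it was -0.37 with an interval from -0.85 to 0.12. These intervals bound the difference and do not show that compounds 4 and 5 act alike.

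Compound 6 left HMGCS1 and IDI1 higher than compound 5 did. HMGCS1 differed by 1.08 ± 0.13 on the log2 scale (edgeR adjusted p = 0.01) and IDI1 by 1.13 ± 0.18 (edgeR adjusted p = 0.024), and in both genes each compound 6 library was above each compound 5 library. Of all genes tested, 0.507% were called higher under compound 6 than under compound 5. The 6 genes with both compound 6 libraries above both compound 5 libraries were HMGCS1, MVK, PMVK, MVD, IDI1 and FDPS, and 25.1% of all genes had that order. MVD differed by 0.68 (edgeR adjusted p = 0.078, and 0.046 with the replicate block) and MVK by 0.60 (edgeR adjusted p = 0.091). PMVK differed by 0.55, FDPS by 0.35, ACAT2 by 0.35 and GGPS1 by 0.20, none of them past the test. Without replicate 1 of compound 6 neither HMGCS1 (1.03, edgeR adjusted p = 0.094) nor IDI1 (1.22, edgeR adjusted p = 0.14) was called. Only 1 of the pair was called without replicate 1 or without replicate 2 of DMSO, without replicate 1 of compound 5 or without replicate 2 of compound 6, with IDI1 being lost each time, and 3 enzymes were called without replicate 2 of compound 5.

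Compounds 4 and 6, which differ by tert-butyl against cyclohexyl groups, gave no called enzyme, and 0% of all 13400 genes passed the edgeR test in this pair. At an unadjusted p under 0.05, 6 of the enzymes and 945 of all genes differed, and DESeq2 called 59 genes, with HMGCS1, MVD and IDI1 among them. HMGCS1 was also called by edgeR when either compound 5 library was left out of the fit (adjusted p = 0.035 and 0.031). The log2 difference, compound 4 less compound 6, was -1.02 for HMGCS1 (95% interval -1.31 to -0.73, edgeR adjusted p = 0.055), -1.01 for IDI1 (-1.42 to -0.60), -0.82 for MVD (-1.19 to -0.45) and -0.72 for ACAT2 (-1.21 to -0.23). It was -0.58 for MVK and -0.48 for FDPS. For these 6 genes both compound 4 libraries were below both compound 6 libraries, an order that 19.6% of all genes had. The differences of PMVK and GGPS1 were 0.07 (-0.43 to 0.56) and 0.21 (-0.17 to 0.58).

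**Figure D4:**
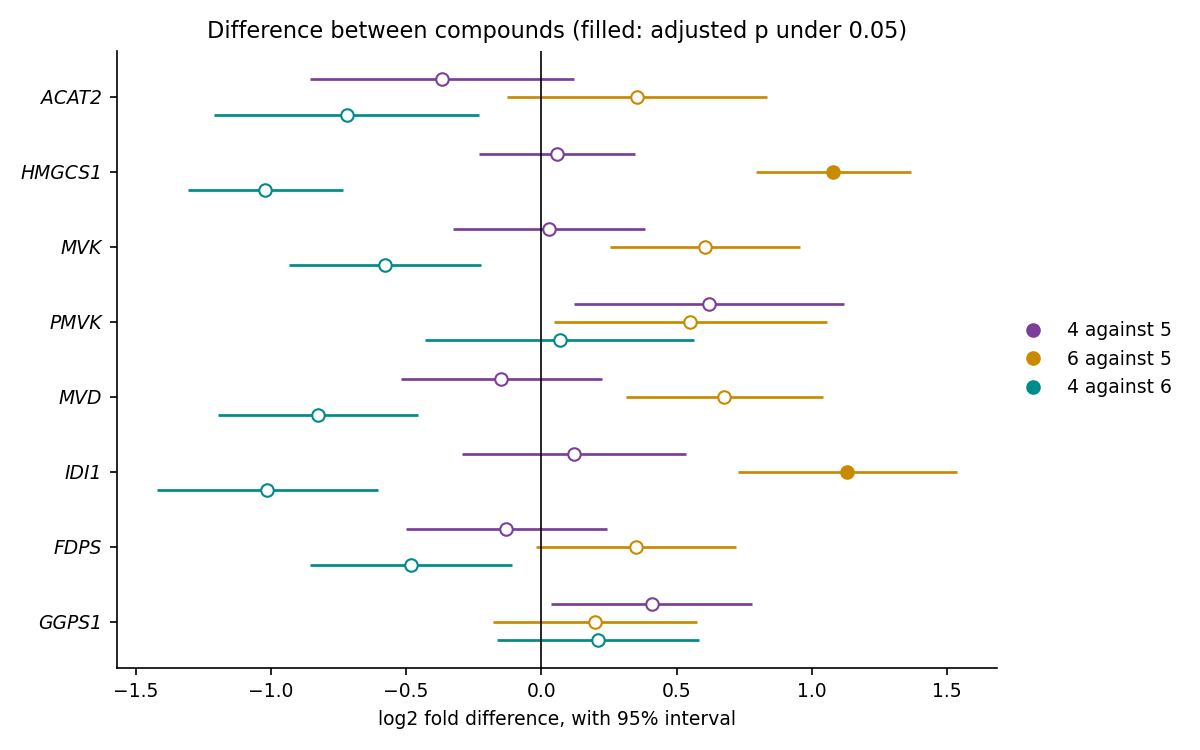
Log2 difference of each enzyme between 2 compounds, from the same edgeR fit, for compound 4 against 5, 6 against 5 and 4 against 6, with 95% intervals as bars. HMGCS1 and IDI1 (filled, adjusted p under 0.05) are higher under compound 6 than under compound 5.

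Across the 8 libraries the log2 CPM of the 6 genes that fell ran together, with Pearson's r between 0.94 and 0.99 over their 15 pairs. GGPS1 had r between -0.32 and -0.08 with the 6 and PMVK between 0.30 and 0.47, and PMVK and GGPS1 had r of 0.27 with each other. These are descriptions over 8 libraries that share their treatment groups. Of 12721 other genes with a mean of at least 1 CPM, the 5 with a profile most like the mean profile of the 8 enzymes were MMAB (r = 0.996), LSS (0.993), MSMO1 (0.992), ACSS2 (0.990) and TM7SF2 (0.987), over the same 8 libraries. LSS, MSMO1 and TM7SF2 encode enzymes of sterol synthesis after squalene, ACSS2 makes acetyl-CoA from acetate, and MMAB acts on vitamin B12.

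MMAB lies head to head with MVK on the opposite strand, and the RefSeq windows of the 2 genes overlap. The MMAB window is at chr12:109573455-109573754 on the minus strand and also has 5 CCAAT matches, which are the capitals of the MVK window. MMAB was at 43.5 and 42.2 CPM under DMSO, 22.9 and 18.4 under compound 4, 13.7 and 18.1 under compound 5 and 29.1 and 27.6 under compound 6. Its libraries followed the order of the MVK libraries by group, with DMSO highest and compound 6 next. MMAB fell by 1.06 under compound 4 (edgeR adjusted p = 0.0067) and had a log2-fold change of -1.42 under compound 5 (edgeR adjusted p = 0.0031), and was at -0.59 under compound 6 (edgeR adjusted p = 0.11). The library kit was directional, but the sources do not say whether counting used the strand of the reads, so reads of overlapping genes on opposite strands may not be fully separated.

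Of 20 tested genes that overlap or lie next to the 8 enzymes, 1 was called lower under compound 4, MMAB. Under compound 5, 2 were called lower, MMAB and PKLR, pyruvate kinase of liver and red cells (PKLR at -1.03, edgeR adjusted p = 0.024). Under compound 6 edgeR called none of the neighbours in either direction. There 3 of the 20 had an unadjusted edgeR p under 0.05, as had 2490 of the 13400 genes tested. With the replicate block PBXIP1, next to PMVK, was also called lower under compounds 4 and 5 (-0.59 and -0.56, edgeR adjusted p = 0.038 and 0.047), which made 2 and 3 genes. In the fit without the block, edgeR called lower 3.91%, 2.95% and 0.0821% of all genes tested under compounds 4–6. The median log2-fold changes of the 20 neighbours were -0.06, 0.04 and -0.04 for compounds 4–6. TCP1, a chaperonin subunit that overlaps ACAT2 on the opposite strand, was at 0.09, 0.23 and -0.09 and did not pass the test. ARID4B, which overlaps GGPS1 on the opposite strand, was at -0.36, 0.18 and 0.03, also not past the test. A row named TBCE (ENSG00000285053) that overlaps GGPS1 on the same strand was at -1.40, -0.18 and -0.69, with edgeR adjusted p of 0.11, 0.82 and 0.47. Another row named TBCE (ENSG00000284770), beside GGPS1, was at 0.34, 0.12 and 0.39, also not past the test. In DMSO replicates 1 and 2 the overlapping row had 118 and 53 counts and the other row 111 and 266. Whether reads were split between these rows was not tested. Pseudogenes of these enzymes name 11 rows, and none had more than 1 count in a library.

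The sterol branch leads from farnesyl pyrophosphate to cholesterol. Under compound 4, 12 of its 12 genes were called lower (median log2-fold change -1.53, against 0.01 over all genes tested). They ranged from MSMO1 at -2.16 to SC5D at -0.95. Under compound 5, 12 of 12 were called lower (median -1.53, against 0.00 over all genes). Under compound 6, 3 of 12 were called lower, or 1 with the replicate block (median -0.93, against 0.02). All 12 were nonetheless below 0 under compound 6 with an unadjusted edgeR p under 0.05. Of the 13400 genes tested, 2490 had such a p there, in either direction. Over all genes tested, 3.91%, 2.95% and 0.0821% were called lower under compounds 4–6. Between compounds 6 and 5, 4 of the 12 were called higher under compound 6, against 0.507% of all genes. The medians of the 8 enzymes in the plot of genes around the arm lie beside those of the sterol branch.

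In the supply of acetyl-CoA, the substrate of ACAT2, 3 of 6 genes fell under compound 4 and under compound 5, and edgeR called 0 under compound 6. The 3 not called under compounds 4 and 5 encode parts of mitochondrial pyruvate dehydrogenase. The 3 that fell, which serve the cytosolic supply, had an unadjusted edgeR p below 0.05 under compound 6. Of the 13400 genes tested, 2490 had such a p there. The shares called lower among all genes tested were 3.91%, 2.95% and 0.0821% for compounds 4–6. ACSS2 was lowest of the 6 at -1.32, -1.73 and -0.71 (edgeR adjusted p = 0.0041, 0.0019 and 0.079). PDHA1, a subunit of mitochondrial pyruvate dehydrogenase, was highest under compound 4 at -0.02. ACAT1, the mitochondrial relative of ACAT2, was at 119 and 122 CPM under DMSO, 136 and 111 under compound 4, 123 and 123 under compound 5 and 117 and 109 under compound 6, with log2-fold changes of 0.03, 0.03 and -0.09, none past the test. IDI2, the relative of IDI1, had 0 counts in each library.

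Of 11 genes that use the isoprenoid products, edgeR called none lower in any of the 3 comparisons. The shares called lower among all genes tested were 3.91%, 2.95% and 0.0821% for compounds 4–6. DHDDS, a subunit of the enzyme that builds the dolichol chain, rose by 0.66 under compound 4 (edgeR adjusted p = 0.037). RABGGTB, a subunit of the enzyme that prenylates Rab proteins, rose by 0.69 under compound 5 (edgeR adjusted p = 0.017). Of all 13400 genes tested, edgeR called 751 and 717 higher under compounds 4 and 5. DHDDS was also at 0.56 and 0.52 under compounds 5 and 6, and RABGGTB at 0.35 and 0.56 under compounds 4 and 6, none past the test. With the replicate block NUS1, the other subunit of the dolichol chain enzyme, was also called higher under compound 5 (0.37, edgeR adjusted p = 0.043). FNTB, the farnesyltransferase subunit, was lowest under compound 4 at -0.26 (edgeR adjusted p = 0.22). The medians of the list were 0.14, 0.25 and 0.06 for compounds 4–6.

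Among the 7 genes of the SREBP system, 6 were tested. SREBF2, which encodes SREBP-2, was at 284 and 263 CPM under DMSO, 197 and 177 under compound 4, 170 and 181 under compound 5 and 240 and 223 under compound 6. Both libraries of each compound were below both DMSO libraries, an order that 28%, 28.5% and 26% of all genes had under compounds 4–6. SREBF2 fell by 0.55 ± 0.11 on the log2 scale under compound 4 (edgeR adjusted p = 0.015) and by 0.64 ± 0.11 under compound 5 (edgeR adjusted p = 0.011), and was at -0.24 under compound 6 (edgeR adjusted p = 0.26). MBTPS2, a protease that releases SREBPs, was also lower under compound 5 (-0.45, edgeR adjusted p = 0.047), and MBTPS1 had the highest value of the list under compound 4 and under compound 5, 0.25 and 0.35 (edgeR adjusted p = 0.14 and 0.058, the latter 0.046 with the replicate block). INSIG1, which retains the SREBP complex when sterols are plentiful, was listed at 0 in each of the 8 libraries, DMSO included. Such a listing can be a failed estimate, and no level of INSIG1 is read from it.

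**Figure D5:**
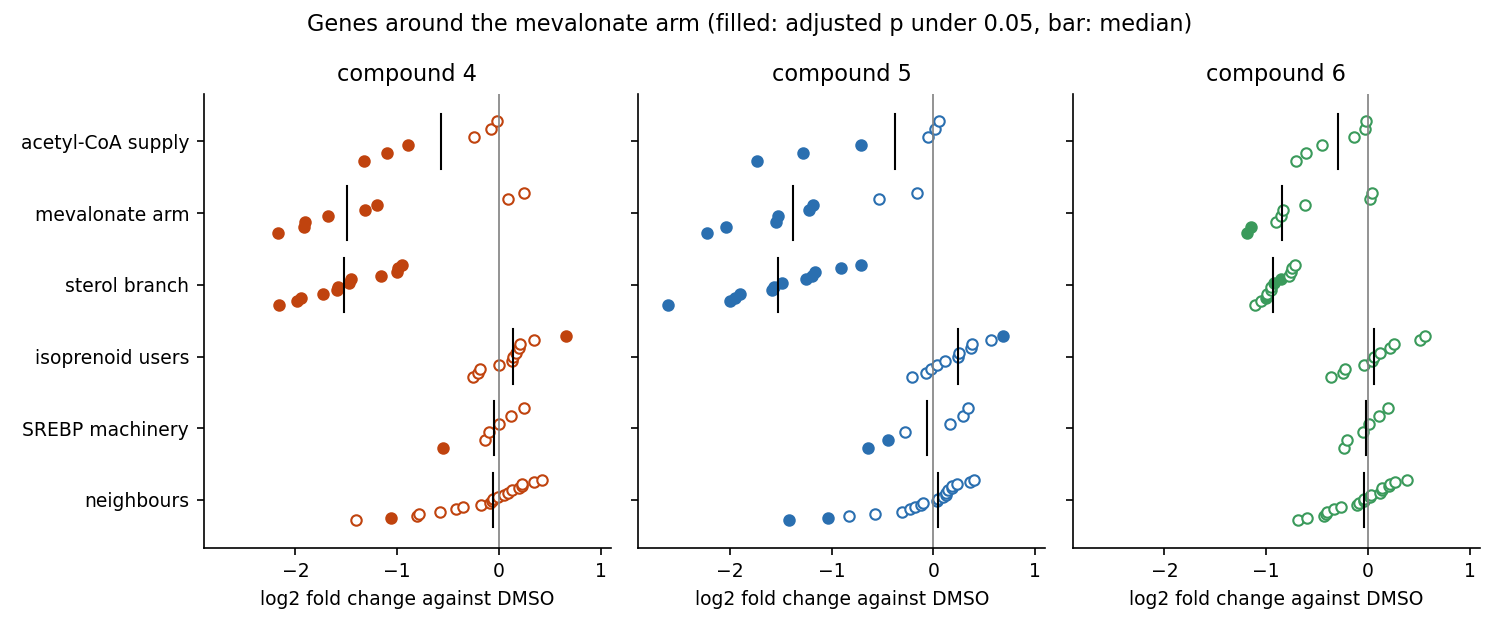
Log2-fold change against DMSO under compounds 4–6 of the tested genes of acetyl-CoA supply, the mevalonate arm, the sterol branch, users of isoprenoids, the SREBP system and chromosomal neighbours, with filled symbols for an edgeR adjusted p under 0.05 and a bar at each median. The sterol branch medians are -1.53, -1.53 and -0.93. The medians of neighbours and isoprenoid users lie between -0.06 and 0.25, with single genes further from 0, some of them called.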

How the data were processed

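RNA of 8 samples in 4 groups of 2 was sequenced. The authors quantified reads with Salmon 1.5.0 on GENCODE 38 transcripts after FastQC 0.12.0, summed to genes, and deposited estimated counts that are whole numbers without normalization. They tested with DESeq2 1.38.3. The column headers of DMSO replicate 1 and compound 4 replicate 1 carry the word merged and do not say what was merged. Transcript length offsets were not used here.

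Counts were fitted in R 4.3.3 with edgeR 4.0.16 (quasi-likelihood test, TMM, filterByExpr at a minimum count of 10, 1 fit of all 8 libraries, Benjamini-Hochberg over 13400 genes, threshold 0.05), after the script was tested on simulated counts. CPM for likeness were log2(CPM + 0.5). Symbols were matched for 60089 of 60230 rows, and positions are from GENCODE 29, also on GRCh38. The members and lists were chosen with earlier results of these data known. Genes named are the 8 members and, from each list, the lowest and highest change under compound 4, called exceptions, overlapping or called neighbours, and the 5 most alike profiles.

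Alternatives were DESeq2 1.42.0, its size factors, no filter, only the 4 libraries compared, each library left out, and the replicate number as a block. The labels tie the numbers to day 1 and day 2. Deviations of same-numbered libraries correlated between -0.16 and 0.30 over 6 pairs of groups. Library totals of 9791659 to 17814595 limit precision for genes with few counts such as PMVK.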

Additional observations from a re-analysis of the deposited data

Results flagged for a closer look

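HMGCS1 and IDI1 stood out because the effects of 2 compounds differed by a test of the difference itself. HMGCS1 was 1.08 higher on the log2 scale under compound 6 than under compound 5 (edgeR adjusted p = 0.01), with both compound 6 libraries above both compound 5 libraries. IDI1 was 1.13 higher (edgeR adjusted p = 0.024), with the same order, which 25.1% of all genes had. Neither was called without replicate 1 of compound 6 (edgeR adjusted p = 0.094 for HMGCS1 and 0.14 for IDI1). The molar doses were close, with that of compound 6 the higher, and the part of dose was not tested. Groups of 2 libraries were too small to look for single libraries far from the rest.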

How the results depend on the processing

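With 2 libraries a group, the calls under compound 6 lie near the threshold and depend on the fit, while those under compounds 4 and 5 mostly did not. Called enzymes against DMSO numbered 6 (compound 4), 6 (compound 5) and 2 (compound 6). Over fits without 1 library they were 4 to 6 (compound 4), 3 to 6 (compound 5) and 0 to 6 (compound 6). For compound 6 the number was 6 with DESeq2, 6 with no filter, 6 with only the 4 libraries and 1 with DESeq2 size factors. For compound 6 against 5 (2 called) it was 4 with no filter, 1 with only the 4 libraries and 0 to 3 without 1 library. For compound 4 against 6 (0 called) it was 3 with DESeq2, 5 with no filter and 0 to 1 without 1 library. For compound 4 against 5 it was 0 in each fit. With the replicate block the 6 counts were 6, 6, 2, 0, 3 and 0 in the order compounds 4, 5 and 6 against DMSO, 4 against 5, 6 against 5 and 4 against 6; the block changed the calls of ACAT2 and MVD under compound 6 and of MVD for compound 6 against 5, and no other call of an enzyme. Over all genes it called 1699, 1429 and 68 against DMSO in place of 1275, 1112 and 77, and 128, 269 and 1 in place of 42, 138 and 0 for 4 against 5, 6 against 5 and 4 against 6. With no filter these 6 counts were 2383, 2431, 1355, 750, 990 and 259, and with DESeq2 they were 1440, 1338, 547, 208, 371 and 59. With DESeq2 size factors 47 genes were called for compound 6 against DMSO. With only the 4 libraries 1023 were called there, 10 for 4 against 5 and 49 for 6 against 5. Signs turned only in values that did not pass the test. PMVK under compound 6 was -0.00094 with only the 4 libraries. Without 1 library, PMVK ranged from -0.024 to 0.21 under compound 4 and from -0.099 to 0.14 under compound 6, and GGPS1 from -0.37 to 0.035 under compound 5 and from -0.089 to 0.16 under compound 6. For compound 4 against 5 the ranges were -0.68 to 0.057 for ACAT2, -0.061 to 0.18 for HMGCS1, -0.13 to 0.23 for MVK, -0.36 to 0.12 for MVD, -0.10 to 0.40 for IDI1 and -0.37 to 0.18 for FDPS. Of all values of single enzymes under the alternatives, 549 kept direction and side of the threshold, 38 newly passed it, 21 no longer did and 16 changed sign. The cause was not tested.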
